A study of Mus musculus with 2 samples.

Results

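The 10 genes described here code for ligands, inhibitors and receptors of the interleukin-1 (IL-1) family: *Il1a*, *Il1b*, *Il18* and *Il33* for the agonist cytokines, *Il1rn* and *Il18bp* for secreted inhibitors, and *Il1r1*, *Il1r2*, *Il1rap* and *Il1rl1* for receptor chains. They were taken by gene symbol from a list of names, and all 10 were found among 55536 annotated genes, of which 22028 are protein-coding. Polyadenylated RNA was sequenced from primary macrophages grown from bone marrow of C57BL/6J mice and exposed to a ligand at 100 ng/ml for 30 min. The labels name the ligand in one field as Lipid A, the membrane anchor of bacterial lipopolysaccharide, and in other fields as lipoprotein A of the type protein, and which it was is not settled here. There were 2 libraries, biological replicates 2 and 1 of this single group, from separate biosamples under 1 donor record, with age and sex not collected. Without an untreated sample, nothing below says that a gene was induced or repressed: levels are described, and the ratio of replicate 2 over replicate 1 measures the spread between libraries.

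IL-1α and IL-1β act on the same signalling receptor, IL-1R1, which pairs with the accessory chain IL-1RAP and passes the signal through MyD88 to NF-κB and MAP kinases. IL-18 and IL-33 use related receptors built on the same plan, with ST2, the product of *Il1rl1*, as the receptor for IL-33. The family is kept in check by a receptor antagonist, by a decoy receptor and by a protein that captures IL-18. Macrophages are a classical source of IL-1β, which they make as a precursor that caspase-1 cuts, and *Il1a* and *Il1b* are textbook early targets of Toll-like receptor signalling, while *Il18* is known as a gene that resting macrophages already express.

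Depth over genes was 51904470 expected counts in replicate 2 and 37784941 in replicate 1. For a gene with 0 counts a floor of 3 counts was set, since RNA at a level below it can be missed by sampling. That floor is 0.0578 CPM (counts scaled by depth) in replicate 2 and 0.0794 CPM in replicate 1. Ribosomal RNA genes took 5.05% of counts in replicate 2 and 10.9% in replicate 1. The libraries were not copies of each other: the biological coefficient of variation was 0.25 over 12266 genes with enough counts to test, and the log2 ratios had an SD of 0.58 and a median of 0.00. All 8 macrophage markers passed 1 TPM in each library, TPM being a level per unit of transcript length that sums to a fixed total, with summed levels of 27510 TPM in replicate 2 and 21671 TPM in replicate 1. Without *Lyz2*, a choice made after its values were seen, the sums were 5383 TPM in replicate 2 and 5764 TPM in replicate 1. Beyond sampling noise 2 of the 8 were higher in replicate 2 and 6 lower, against 32.2% and 31.3% of all tested genes, with a median log2 ratio of −0.21. The 10 neutrophil markers summed to 59.1 TPM in replicate 2 and 357 TPM in replicate 1, with 4 of them at or above 1 TPM in each, while the defining marker *Ly6g* had 0 and 1 counts. Of the other marker lists, 0 of 8 for mast cells and basophils, 1 of 7 for T and innate lymphoid cells (*Rora*), 0 of 7 for stromal cells, 2 of 6 for endothelial cells (*Vwf* and *Kdr*) and 0 of 5 for dendritic cells reached 1 TPM in both libraries. Of all protein-coding genes, 45.3% reached 1 TPM in both. The mast cell and basophil markers summed to 3.32 TPM in replicate 2 and 2.49 TPM in replicate 1, and the T and innate lymphoid markers to 4.07 and 3.53 TPM. For stromal markers the sums were 1.10 TPM in replicate 2 and 1.08 TPM in replicate 1, for endothelial markers 41.6 and 18.2 TPM, and for dendritic markers 1.75 and 3.48 TPM. *Fcer1a*, *Tpsb2*, *Lum* and *Tek* had no count in either library. Because these are bulk samples, fewer cells of a type and less RNA per cell cannot be told apart.

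The control regions just before the starts of *Il1a*, *Il1b* and *Il1rn* are shown because these genes gave the highest levels among the ligands and the antagonist and were the members with more RNA in replicate 2. Each stretch is the 250 bases before a start in the RefSeq promoter table (GRCm38.p6), read 5′ to 3′ on the strand of the gene. Capitals mark matches to the motifs of AP-1, PU.1 and NF-κB or to a TATA box, and positions count back from −1, the last base before the start. The *Il1a* stretch is chr2:129309973-129310222, minus strand, the *Il1b* stretch chr2:129371140-129371389, minus strand, and the *Il1rn* stretches, plus strand, chr2:24336610-24336859 before its upstream start and chr2:24345041-24345290 before the first of its 2 downstream starts in the table.
Il1a: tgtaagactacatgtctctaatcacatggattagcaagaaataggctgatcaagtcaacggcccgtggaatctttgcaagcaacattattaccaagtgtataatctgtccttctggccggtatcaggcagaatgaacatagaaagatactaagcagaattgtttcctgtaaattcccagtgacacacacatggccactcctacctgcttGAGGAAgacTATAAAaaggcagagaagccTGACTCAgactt
Il1b: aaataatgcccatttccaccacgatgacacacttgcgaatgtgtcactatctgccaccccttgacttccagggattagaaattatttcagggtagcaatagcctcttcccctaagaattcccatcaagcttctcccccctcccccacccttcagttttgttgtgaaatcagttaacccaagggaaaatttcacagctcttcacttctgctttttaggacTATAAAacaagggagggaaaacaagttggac
Il1rn upstream start: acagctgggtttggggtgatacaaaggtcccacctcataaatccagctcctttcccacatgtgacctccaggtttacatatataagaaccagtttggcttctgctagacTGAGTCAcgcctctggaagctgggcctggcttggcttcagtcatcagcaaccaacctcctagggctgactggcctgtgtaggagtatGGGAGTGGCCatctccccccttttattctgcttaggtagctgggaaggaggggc
Il1rn downstream start: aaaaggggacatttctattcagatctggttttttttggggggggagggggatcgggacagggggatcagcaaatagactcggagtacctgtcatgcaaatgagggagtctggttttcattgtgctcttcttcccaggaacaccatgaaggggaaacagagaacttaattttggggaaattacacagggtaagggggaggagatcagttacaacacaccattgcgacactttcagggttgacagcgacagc

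*Il1a* and *Il1b* each carried a TATA box (TATAAA) close to the start, at −32 and −31, a motif found in 13.6% of the 32851 RefSeq promoter windows, which span 250 bases before to 50 after a start. In *Il1a* the box lay between a match to the core of PU.1, the factor that specifies macrophages, at −41 and a match to AP-1, the dimer of FOS and JUN proteins, at −12. The PU.1 core (GAGGAA) was in 28.3% of all windows. The AP-1 motif was in 7.81% of all windows, with TGANTCA as the letters searched. Before the upstream start of *Il1rn* there was an AP-1 match at −141 and a κB match at −54. The κB letters searched, GGG and CC with 5 bases of any kind between them, are so loose that 50.8% of all windows held them. No motif lay wholly within the stretch printed for the first downstream start of *Il1rn*, and a κB match began at position 30 after it. The same match lies at −51 of the other downstream start, whose stretch is not printed because it runs into the annotated first exon of *Il1rn-201*. All 10 members had at least 1 window, 15 in all, searched on both strands: the κB motif was in 5 of 15 windows (*Il1rn*, *Il1r1* and *Il1rap*, the last with 6 matches of which some overlap), the letters TATAAA in 6, the PU.1 core in 3 and AP-1 in 2. The TATAAA run lay close before the start in *Il1a*, in *Il1b* and, at −29, in *Il33*. Elsewhere it lay at −203 (another *Il33* window), or on the opposite strand at −175 (*Il18*) and at position 15 after a start (*Il1rn*). The C/EBP motif, searched as TTGCNNCAA and present in 2.08% of all windows, was in 1, that of *Il18bp*. The interferon response element, 2 GAAA runs with 2 bases of any kind between them, was in 1, that of *Il1rap*, and in 3.44% of all windows. The cyclic AMP response element (TGACGTCA, 1.79% of all windows) was in none of the 15. A match is a run of letters and does not show binding, and a window without one says only that these letters are absent from it.

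Ligand and inhibitor genes were well expressed apart from *Il33*, and receptor genes were near or below the limit of detection, set here at 1 TPM. Levels of at least 1 TPM in each library were found for 6 of the 10 members (*Il1b*, *Il1a*, *Il1rn*, *Il18bp*, *Il18* and *Il1rap*), against 45.3% of protein-coding genes and 19.2% of all annotated genes. The median of the members' mean levels was 18.7 TPM, against 0.385 TPM for all protein-coding genes and 17.5 TPM for the protein-coding genes at 1 TPM or more in both libraries. By role the receptor genes lay far below the rest, the 4 of them summing to 3.60 TPM in replicate 2 and 3.97 TPM in replicate 1. The 4 agonist genes summed to 965 TPM in replicate 2 and 268 TPM in replicate 1, and the 2 inhibitor genes to 186 and 159 TPM. Agonists and inhibitors were thus closer in replicate 1, and these sums set 4 genes against 2. The whole family took 0.0936% of the counts of replicate 2 and 0.0367% of those of replicate 1.

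**Figure D1:**
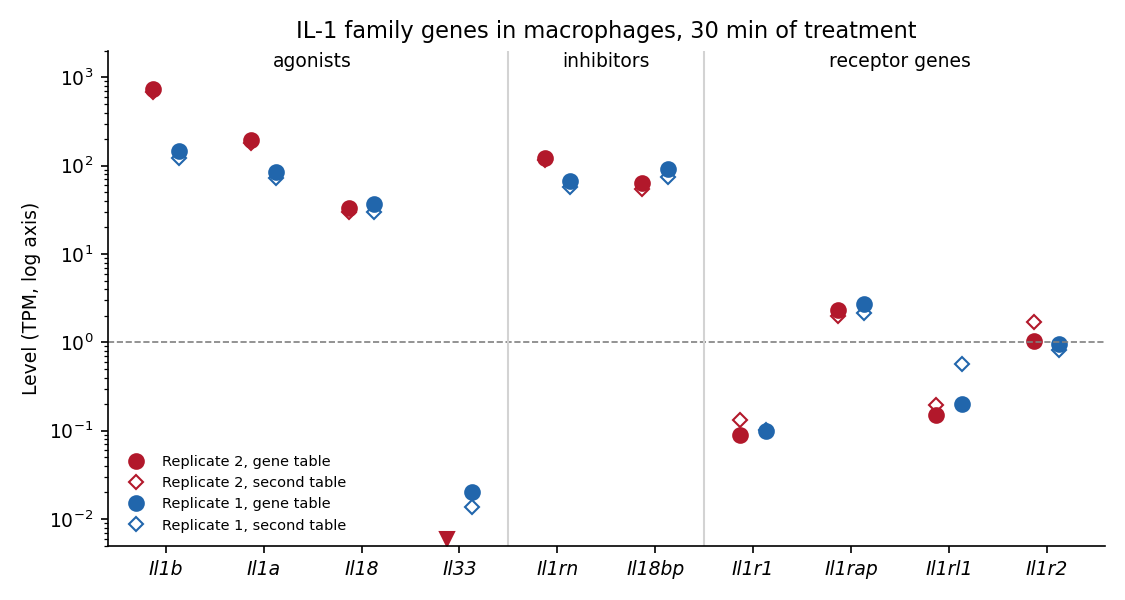
Level of each of the 10 genes in TPM (log axis) in replicate 2 (red, left) and replicate 1 (blue, right), grouped by role. Filled circles are the deposited gene table and open diamonds the second deposited table; the dashed line is 1 TPM, and the triangle marks *Il33* in replicate 2, listed at 0. Ligand and inhibitor genes other than *Il33* lie above 30 TPM in the gene table, and the receptor genes lie between 0.09 and 2.70 TPM.

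*Il1b* (ENSMUSG00000027398.13; mm10 chromosome 2, 129364570 to 129371139, minus strand), the gene of secreted IL-1β, had the highest level of the family in each library. It was at 734.5 TPM (26451 expected counts) in replicate 2 and 145.87 TPM (3903 counts) in replicate 1, a mean of 440 ± 416 TPM (SD, n = 2). Among protein-coding genes it ranked 148 in replicate 2 and 786 in replicate 1, so it was an abundant transcript in both, but the spread between the libraries was nearly as large as the mean. After scaling by TMM, which removes differences in depth and composition, *Il1b* was 4.55-fold higher in replicate 2 (95% exact interval for counting error 4.40 to 4.71; log2 ratio 2.19), and 0.473% of tested genes had a ratio at least as high.

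*Il1a* (ENSMUSG00000027399.1; chromosome 2, 129299610 to 129309972, minus strand) codes for IL-1α, a cytokine that is active as a precursor and largely stays with the cell. Its level was 197.39 TPM (11796 counts) in replicate 2 and 85.45 TPM (3650 counts after rounding) in replicate 1, a mean of 141 ± 79.2 TPM (SD, n = 2). It was 2.17-fold higher in replicate 2 (log2 ratio 1.12, interval 1.06 to 1.17), and 3.97% of tested genes had a ratio at least as high. Both IL-1 agonist genes were thus above 80 TPM in each library and differed between libraries by more than 2-fold, in the same direction. *Il1b* exceeded *Il1a* within each library, 3.72-fold in replicate 2 and 1.71-fold in replicate 1 on the TPM scale (mean log2 ratio 1.33 ± 0.79, SD, n = 2), although their ranges over the libraries overlapped. Together *Il1a* and *Il1b* made up 80.7% of the family's TPM in replicate 2 and 53.7% in replicate 1, and *Il1b* alone 63.6% and 33.8%.

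*Il18* (ENSMUSG00000039217.13; chromosome 9, 50554827 to 50581840, plus strand), whose product drives interferon-γ production by lymphocytes, was the steady ligand. It had 33.31 TPM (611 counts) in replicate 2 and 36.55 TPM (513 counts) in replicate 1, a mean of 34.9 ± 2.29 TPM (SD, n = 2). The log2 ratio was −0.32 (interval −0.49 to −0.15), a small difference that was still beyond sampling noise (adjusted p = 0.000451, exact binomial test).

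*Il33* (ENSMUSG00000024810.16; chromosome 19, 29925114 to 29960718, plus strand), the gene of a nuclear alarmin known mainly from epithelial and stromal cells, had 0 counts in replicate 2 and 1 count in replicate 1. It was not tested, and its RNA was not detectable at this depth.

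The IL-1 receptor antagonist gene *Il1rn* (ENSMUSG00000026981.15; chromosome 2, 24336853 to 24351494, plus strand) came next to *Il1a* in the mean levels. It was at 122.79 TPM (6707 counts) in replicate 2 and 66.64 TPM (2757 counts) in replicate 1, a mean of 94.7 ± 39.7 TPM (SD, n = 2), and was 1.63-fold higher in replicate 2 (log2 ratio 0.71, interval 0.64 to 0.77; adjusted p = 5.27e-109, exact binomial test). Set against its opponent, *Il1b* RNA exceeded *Il1rn* RNA 5.98-fold in replicate 2 and 2.19-fold in replicate 1 on the TPM scale (mean log2 ratio 1.86 ± 1.03, SD, n = 2). Agonist RNA was therefore above antagonist RNA in each library, by amounts that differed between them.

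*Il18bp* (ENSMUSG00000070427.4; chromosome 7, 102014885 to 102018690, minus strand), which codes for the soluble protein that captures IL-18, went the other way. It was at 62.97 TPM (2631 counts) in replicate 2 and 92.66 TPM (2720 counts) in replicate 1, a mean of 77.8 ± 21 TPM (SD, n = 2). Its ratio was 0.649 (log2 ratio −0.62, interval −0.70 to −0.55; adjusted p = 9.74e-55, exact binomial test), and 7.26% of tested genes had a ratio as low or lower. *Il18bp* exceeded *Il18* in both libraries, 1.89-fold in replicate 2 and 2.54-fold in replicate 1 (mean log2 ratio 1.13 ± 0.30, SD, n = 2). The inhibitor genes *Il1rn* and *Il18bp* together held 16.1% of the family's TPM in replicate 2 and 36.9% in replicate 1.

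The receptor genes were low. *Il1rap* (ENSMUSG00000022514.14; chromosome 16, 26581704 to 26730117, plus strand), the shared accessory chain of the IL-1, IL-33 and IL-36 receptors, was the only one of the 4 above 1 TPM in both libraries, with 2.31 TPM (319 counts) in replicate 2 and 2.70 TPM (272 counts) in replicate 1, a mean of 2.51 ± 0.276 TPM (SD, n = 2). Its log2 ratio was −0.35 (interval −0.58 to −0.11; adjusted p = 0.00788, exact binomial test). Scaling by total counts in place of TMM gave −0.23 and no call.

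The decoy receptor gene *Il1r2* (ENSMUSG00000026073.13; chromosome 1, 40074079 to 40125231, plus strand), whose product binds IL-1 without signalling, sat at the limit with 1.05 TPM (31 counts) in replicate 2 and 0.97 TPM (28 counts) in replicate 1. The signalling receptor gene *Il1r1* (ENSMUSG00000026072.12; chromosome 1, 40225080 to 40317257, plus strand) had 0.09 TPM (17 counts) in replicate 2 and 0.10 TPM (14 counts) in replicate 1. *Il1r2* was thus 11.7-fold above *Il1r1* in replicate 2 and 9.70-fold in replicate 1 on the TPM scale (mean log2 ratio 3.41 ± 0.19, SD, n = 2), although the counts behind this are few. The counts lie closer together than the TPM, which are per unit of transcript length. In replicate 2, 0.27 of the 1.05 TPM of *Il1r2* came from 1 count on the 366-nt transcript *Il1r2-203*. With the deposited posterior mean TPM, an alternative chosen after seeing the data, *Il1r2* was 6.0-fold above *Il1r1* in replicate 2 and 5.0-fold in replicate 1. In replicate 2 the 95% exact Poisson intervals were 21.1 to 44.0 counts for *Il1r2* and 9.90 to 27.2 for *Il1r1*. *Il1rl1* (ENSMUSG00000026069.15; chromosome 1, 40429570 to 40465415, plus strand), the ST2 gene, had 0.15 TPM (23 counts) in replicate 2 and 0.20 TPM (13 counts) in replicate 1. For these 3 genes no difference between the libraries could be shown: the log2 ratios were −0.43 (interval −1.21 to 0.36) for *Il1r2*, −0.30 (−1.40 to 0.84) for *Il1r1* and 0.25 (−0.79 to 1.35) for *Il1rl1*, with adjusted p of 0.360, 0.657 and 0.789 in the exact binomial test, and the intervals leave room for changes of 2-fold or more. The second deposited table turned all of these signs, with 0.29 for *Il1r2*, 0.41 for *Il1r1* and −0.19 for *Il1rl1*.

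By mean TPM the order was *Il1b*, *Il1a*, *Il1rn*, *Il18bp*, *Il18*, *Il1rap*, *Il1r2*, *Il1rl1*, *Il1r1*, *Il33*. The ranges of neighbours overlapped among the first 4 and did not overlap from *Il18bp* downwards. *Il18bp* changed place most: it was below *Il1a* and *Il1rn* in replicate 2 and above both in replicate 1.

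Of the 10 members, 9 had enough counts to compare the libraries. More than 2-fold higher in replicate 2 were 2 of these 9, *Il1b* and *Il1a*, against 5.09% of all tested genes, and more than 2-fold lower were 0 of 9, against 3.12%. Beyond sampling noise, by an exact binomial test adjusted over all 12266 tested genes, 3 of 9 were higher in replicate 2 (*Il1b*, *Il1a*, *Il1rn*), against 32.2% of all tested genes, and 3 of 9 were lower (*Il18bp*, *Il18*, *Il1rap*), against 31.3%. The number called was therefore near that of genes at large, and the size of the 2 agonist ratios is what set them apart from most genes. The members' median log2 ratio was −0.30, against 0.00 for all tested genes, whose quartiles were −0.24 and 0.31. This median is the ratio of *Il1r1*, which rests on few counts, and it was 0.29 in the second deposited table, so no direction can be read from it. Total-count scaling shifted the median of all genes to 0.12 and the share of calls that were higher in replicate 2 to 67.9%, against 50.6% with TMM, and left 3 members higher and 2 lower. The test sets 1 library against the other, not a condition against another. It has no replicate check, and its p-values ask only whether the 2 libraries differ by more than sampling noise. They depend on the number of counts as well as on the ratio, so they do not give the size of a difference.

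**Figure D2:**
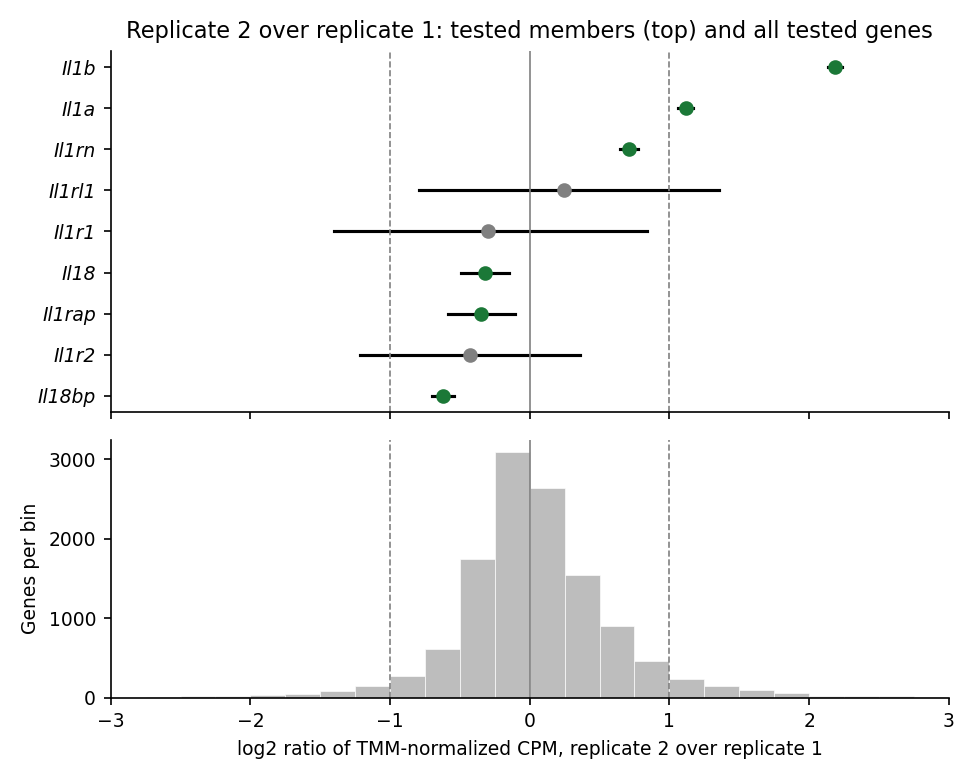
Log2 ratio of TMM-normalised CPM, replicate 2 over replicate 1. Top, the 9 tested members with 95% exact intervals for counting error, green where the difference was beyond sampling noise; bottom, the same ratio for all 12266 tested genes in bins. Dashed lines mark 2-fold. *Il1b* (2.19) and *Il1a* (1.12) lie beyond 2-fold, and the intervals of *Il1rl1*, *Il1r1* and *Il1r2* cross 0.

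Markers of other cells moved between the libraries too. The background for the calls below is that 32.2% of all tested genes were called higher in replicate 2 and 31.3% lower. The neutrophil markers ran opposite to *Il1b*, with *S100a9* at 37.06 TPM in replicate 2 and 182.64 TPM in replicate 1 and *Ngp* at 2.09 and 39.25 TPM, and 4 of 5 tested markers of that list were lower in replicate 2. In the mast cell and basophil list, *Kit*, also a progenitor marker, had 382 counts in replicate 2 and 45 in replicate 1, and it was the only one of 2 tested markers called higher. The others did not follow it: *Hdc* had 35 counts in replicate 2 and 18 in replicate 1 (adjusted p = 0.478, exact binomial test), and *Prss34* had 1 and 19. Of 4 tested endothelial markers, *Vwf* (28.55 TPM in replicate 2 and 11.39 TPM in replicate 1) and *Kdr* (11.83 and 5.12 TPM) were higher in replicate 2, *Pecam1* (0.48 and 1.19 TPM) was lower, and *Cdh5* (0.25 and 0.30 TPM) was not called. All 3 tested dendritic markers were lower in replicate 2. They were *Flt3* (0.18 TPM in replicate 2 and 0.63 TPM in replicate 1), *Siglech* (0.57 and 1.07 TPM) and *Ccr7* (0.85 and 1.54 TPM). *Rora*, the 1 tested T and innate lymphoid marker, was higher in replicate 2 (4.05 and 2.66 TPM), and of 3 tested stromal markers 0 were called. Neutrophils are known to carry *Il1b*, *Il1rn* and *Il1r2* RNA and mast cells *Il1rl1* RNA. The part of such cells in the members' levels was not tested.

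The transcripts were dominated by the forms that code for the full cytokines. *Il1a* has a single annotated transcript, of 270 codons. *Il1b-201*, of 269 codons and 7 exons, gave 93.1% of the gene's TPM in replicate 2 and 97.3% in replicate 1. *Il1b-203*, which shares its start and is annotated as retaining an intron, held 5.12% (533.5 counts) in replicate 2 and 1.75% (27.1 counts) in replicate 1, and the short noncoding *Il1b-202* 1.77% and 0.93%. The second deposited table turned the order of the minor forms round, with 4.71% and 1.74% for *Il1b-203* and 7.49% and 3.48% for *Il1b-202*. Its share was higher in the library with more *Il1b*, but so was that of genes at large: over 6201 genes with such a transcript the median share was 2.07% in replicate 2 and 0.730% in replicate 1, and *Il1b* was at or above 67.0% and 62.9% of them.

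The *Il1rn* transcripts differ in start and in coding sequence. *Il1rn-201*, of 178 codons, is the secreted antagonist, and it gave 74.9% of the gene's TPM in replicate 2 and 79.8% in replicate 1. *Il1rn-204*, of 159 codons, begins 8.46 kb upstream, close to the start shown above with the AP-1 and κB matches, and codes for an intracellular form. It gave 9.41% in replicate 2 and 10.9% in replicate 1. *Il1rn-202*, of 162 codons, begins near *Il1rn-201* and gave 11.1% in replicate 2 and 7.31% in replicate 1. All transcripts from the downstream starts together made up 90.1% in replicate 2 and 89.1% in replicate 1, so the use of the starts was nearly the same in both libraries while the gene's level was not.

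*Il18* RNA came mainly from transcripts of 192 codons, which code for the full precursor and together made up 84.9% in replicate 2 and 85% in replicate 1. How that divides between *Il18-204* (48.8% and 61.0%) and *Il18-202* (36.0% and 24.0%) depended on the quantification, since the second deposited table gave *Il18-202* only 9.80% and 9.03%. The *Il18bp* transcripts of 193 codons held 94.5% in replicate 2 and 95.2% in replicate 1. *Il1rap-201*, of 570 codons, is the membrane form and gave 82.7% in replicate 2 and 87.0% in replicate 1. The shorter *Il1rap-206*, of 360 codons, gave 12.1% in replicate 2 and a mean of 11.1% over both libraries, on 19.7 counts in replicate 2 and 14.0 in replicate 1, and *Il1rap-202*, of 685 codons, 2.60% and 2.96%. For *Il1rl1*, whose long form is the membrane receptor and whose short form is a soluble decoy, transcripts of 567 codons held 21.5 counts in replicate 2 and 11.1 in replicate 1 and those of 337 codons 1.53 and 1.77 counts, too few to compare. The leading *Il1r2* transcript, of 410 codons, held 27.6 and 28 counts in replicates 2 and 1, and for *Il1r1* the deposited tables differed on which transcript the counts belong to.

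**Figure D3:**
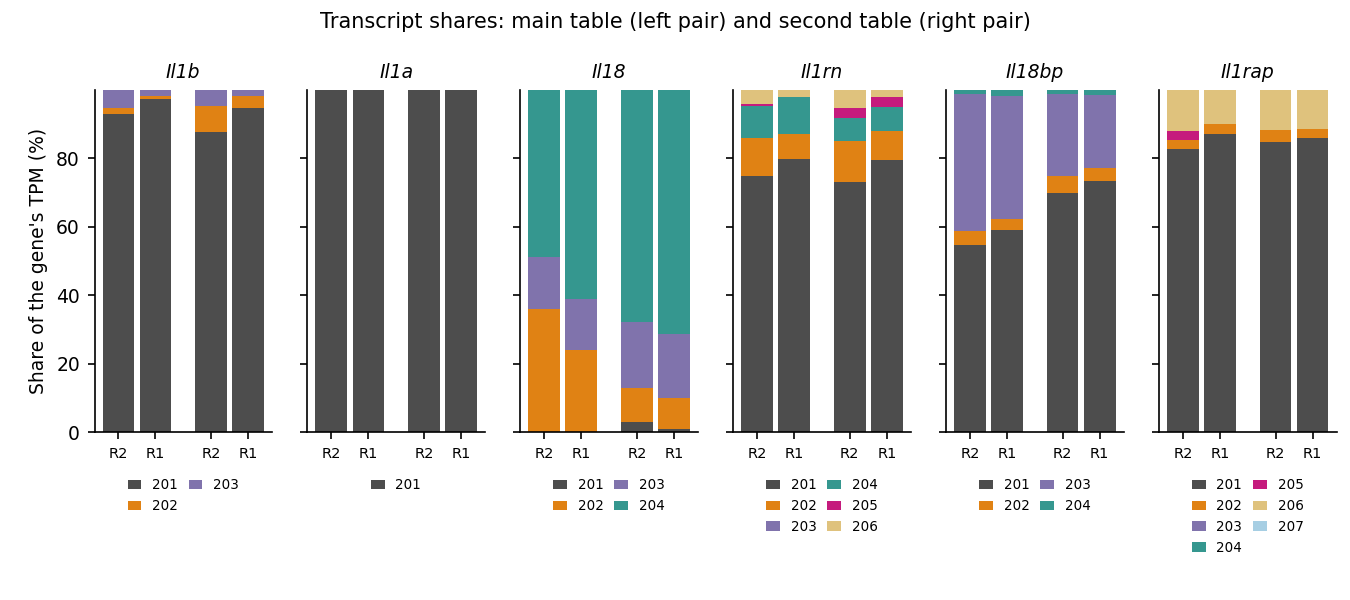
Share of each gene's TPM by annotated transcript, in percent, for the 6 members at 1 TPM or more in both libraries; R2 is replicate 2 and R1 replicate 1. The left pair of bars is the main transcript table and the right pair the second deposited table. Each of the 6 members has the same leading transcript in both tables, while the size of its share in *Il18* and *Il18bp* differs between the tables.

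Some members share exon bases with other genes, and whether reads were assigned by strand is not given in the sources used here. *Il1a* overlaps the antisense *Gm14023* by 222 of its 1974 exon bases, and that gene had 229 counts in replicate 2 and 68.4 in replicate 1. *Il1bos*, antisense to *Il1b* over 25 bases, had 48 counts in replicate 2 and 0 in replicate 1. *Il18bp* meets *Numa1*, a spindle protein gene with 7851 and 5423 counts, over 80 bases on the other strand. *Il1rap* overlaps *Gm20319* by 552 bases, with 0 counts in both. Whether reads in these stretches were told apart by strand is thus unknown, and the antisense partners of *Il1a* and *Il1b* held few counts beside them.

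Of the members, 2 agonist genes, the antagonist gene *Il1rn* and 3 receptor genes lie in clusters with other family genes. *Il18*, *Il18bp*, *Il33* and *Il1rap* are each the only member on their chromosomes. *Il1a* and *Il1b* lie 54.6 kb apart on chromosome 2, and *Il1rn* lies 105 Mb away on the same chromosome beside the *Il36* genes. Next to *Il1a*, *Ckap2l*, a gene of the mitotic spindle, was at 0.70 TPM in replicate 2 and 2.66 TPM in replicate 1 (log2 ratio −2.00). *Slc20a1*, a phosphate transporter gene, was at 43.81 TPM in replicate 2 and 25.53 TPM in replicate 1 (0.46), and beyond *Il1b* lie *F830045P16Rik*, at 0.28 and 0.31 TPM, and *Sirpa*, at 1343 and 1465 TPM. Among these flanking genes, the nearest to *Il1a*, *Ckap2l*, ran the opposite way to the pair. The nearest to *Il1b*, *F830045P16Rik*, had a log2 ratio of −0.28. That ratio rests on 16 counts in replicate 2 and 13 in replicate 1, too few to read a direction from. The overlapping antisense genes are not among them and, like the pair, had more counts in replicate 2. *Gm14023* had 229 counts in replicate 2 and 68.4 in replicate 1, and *Il1bos* 48 and 0. Around *Il1rn*, *Psd4* stood at 38.31 TPM in replicate 2 and 38.85 TPM in replicate 1, and the 5 family genes before it were at or near 0.

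On chromosome 1, *Il1r2*, *Il1r1*, *Il1rl2*, *Il1rl1*, *Il18r1* and *Il18rap* follow one another on the plus strand within 478 kb, and no gene of this cluster passed 2.70 TPM in either library. Before the cluster, *Map4k4*, a kinase gene, was at 48.29 TPM in replicate 2 and 46.14 TPM in replicate 1, and after it *Slc9a4* was at 0.04 and 0.02 TPM.

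**Figure D4:**
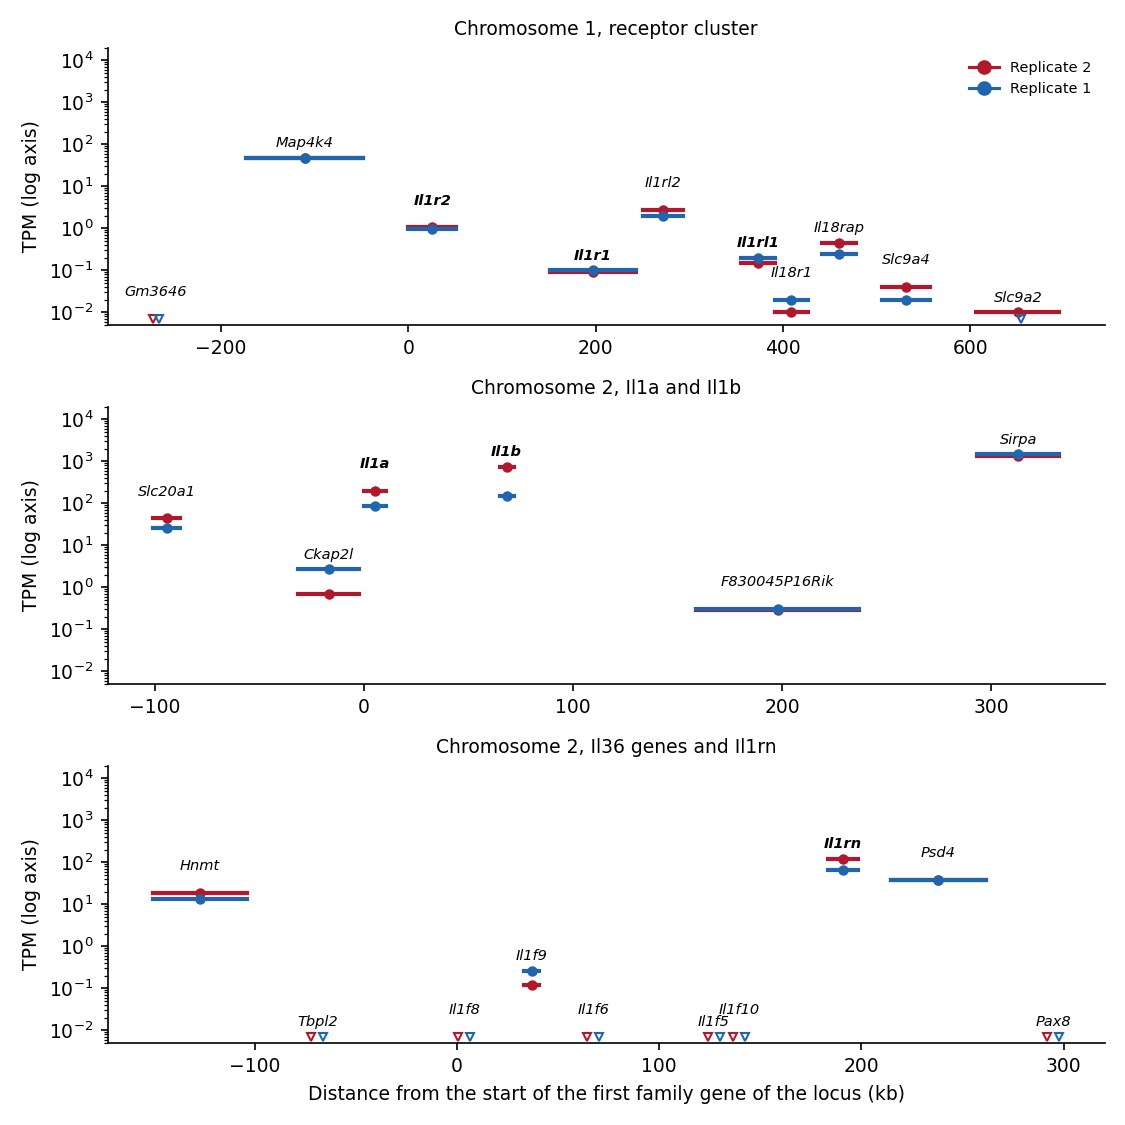
Level in TPM (log axis) of the genes along the receptor cluster on chromosome 1, at *Il1a* and *Il1b*, and at the *Il36* genes and *Il1rn* on chromosome 2, by distance in kb from the start of the first family gene of each locus. Bars span each gene, red for replicate 2 and blue for replicate 1, members in bold, and open triangles mark genes listed at 0. The ligand pair stands well above its nearest plotted neighbour *Ckap2l* in both libraries, and the 6 receptor genes lie at or below 2.70 TPM.

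Among 11 relatives of the family, 1 was at 1 TPM or more in both libraries, against 45.3% of protein-coding genes. This was *Il1rl2*, the IL-36 receptor gene, with 2.70 TPM in replicate 2 and 1.95 TPM in replicate 1. *Sigirr*, an inhibitory receptor gene, had 1.35 TPM in replicate 2 and 0.81 TPM in replicate 1. The other 9 were below 1 TPM in both. *Il18r1* and *Il18rap*, which form the IL-18 receptor, had 1 and 74 counts in replicate 2 and 1 and 28 in replicate 1. *Il36g* (*Il1f9* in the files) had 6 counts in replicate 2 and 9 in replicate 1, and *Il36a*, *Il36b*, *Il36rn*, *Il1f10*, *Il1rapl1* and *Il1rapl2* had 0 in both. Of the 3 relatives with enough counts for the test, *Il1rl2* and *Il18rap* were higher in replicate 2 by more than sampling noise, and none was lower. Of all tested genes, 32.2% were called higher and 31.3% lower, so 3 genes are too few to read a direction from.

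All 18 genes of the IL-1 receptor signalling list passed 1 TPM in each library, against 45.3% of protein-coding genes. RNA of these downstream parts was thus found where *Il1r1* RNA was scarce. The 4 of highest level were *Ube2v1* (153.71 TPM in replicate 2, 156.39 TPM in replicate 1) and *Ube2n* (85.38 and 85.09 TPM), a ubiquitin-conjugating pair that works with TRAF6, *Tab2* (71.71 and 53.67 TPM), an adaptor of the kinase TAK1, and *Tollip* (53.74 and 69.28 TPM), an adaptor that restrains IL-1 signalling. Beyond sampling noise, 9 of 18 were higher in replicate 2 and 5 lower, against 32.2% and 31.3% of all tested genes. More than 2-fold higher was 1 of 18, against 5.09% of all tested genes, and 0 of 18 were more than 2-fold lower, against 3.12%. The 1 was *Peli2*, a ubiquitin ligase gene named here after its values were seen (13.85 TPM in replicate 2 and 6.44 TPM in replicate 1). The list's median log2 ratio was 0.12.

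Of 17 genes for the processing and release of IL-1 cytokines, 14 passed 1 TPM in each library, against 45.3% of protein-coding genes. The leading 4 were *Ninj1* (320.61 TPM in replicate 2, 305.95 TPM in replicate 1), which ruptures the plasma membrane in lytic death, *Capn2* (95.53 and 107.68 TPM), a calpain, the class of protease that cuts the IL-1α precursor, *Casp1* (104.45 and 69.33 TPM), the IL-1β converting enzyme, and *Casp8* (68.34 and 64.62 TPM), which can also cut the IL-1β precursor. *Ctsg*, a granule protease gene, was below 1 TPM in both, with 0 counts in replicate 2 and 13 in replicate 1. *Elane*, another such gene, named after its values were seen, had 0.04 TPM (1 count) in replicate 2 and 1.11 TPM (20 counts) in replicate 1. Neither *Ctsg* nor *Elane* was tested. Beyond sampling noise, 7 of 15 tested genes were higher in replicate 2 and 3 lower, against the same 32.2% and 31.3%, and the list's median log2 ratio was 0.00. Past 2-fold were 2 of 15 on the high side, against 5.09% of all tested genes, and 1 of 15 on the low side, against 3.12%. Named after their values were seen, these were *Casp4* (35.98 TPM in replicate 2, 14.61 TPM in replicate 1) and *Nlrp1b* (6.13 and 2.54 TPM) on the high side and the granule protease gene *Prtn3* (0.60 and 1.35 TPM) on the low side. *Prtn3* rests on 12 counts in replicate 2 and 18 in replicate 1 and was not beyond sampling noise (adjusted p = 0.0598, exact binomial test). *Nlrp3*, the inflammasome sensor gene, also picked after its values were seen, had 45.89 TPM in replicate 2 and 25.46 TPM in replicate 1.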

How the data were processed

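Polyadenylated RNA was sequenced from 2 macrophage libraries, from 1 µg of starting material with fragments of 250 to 400 nt per the labels. Values were made on mm10 with annotation M21, per the labels and the deposited identifiers; the sources used here name no quantification tool, and the columns are those that RSEM and kallisto write, per the file headers. The deposited gene and transcript tables give, per the file headers, expected counts, which are not normalized, and TPM. A second deposited transcript table gives estimated counts and TPM, summed per gene here as an alternative.

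Expected counts were rounded, genes were kept with filterByExpr and scaled with TMM in edgeR 4.0.16 (R 4.3.3), and libraries were compared per gene with a two-sided exact binomial test (scipy 1.17.1), adjusted by Benjamini-Hochberg over all tested genes and called at 0.05. The procedure was tried on simulated counts that held sampling noise alone, so that trial does not cover the variation between replicates seen here. Entries naming no gene held 0.0698% of counts in replicate 2 and 0.0891% in replicate 1 and were left out. Fold changes come from these counts, and levels from TPM. Intervals are 95% and, like floors of 3 counts, hold for counting error alone, because the reads carry no molecular identifiers and are not independent. Promoters came from a RefSeq table.

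The members and lists were chosen with earlier results of these data known. Named were all members, per list (relatives, signalling, processing) the 4 of highest mean TPM and those below 1 TPM in both libraries, and neighbours in the clusters.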

Additional observations from a re-analysis of the deposited data

How the results depend on the processing

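Between 5 and 7 members counted as detected under limits of 0.5 or 5 TPM, a mean of 1 TPM, the second table, protein-coding TPM or 1 library, against 6 as reported. Without the count filter 3 members passed 2-fold, the additional one being *Il33* with 0 and 1 counts. The number was 2 under each other scaling and table. Beyond sampling noise were 6 members, or 5 with total counts. The mean log2 TPM ratios leaving out each replicate ran from 1.13 to 2.58 for *Il1b* over *Il1rn*, 0.77 to 1.90 for *Il1b* over *Il1a*, 0.92 to 1.34 for *Il18bp* over *Il18* and 3.28 to 3.54 for *Il1r2* over *Il1r1*, and no called difference changed sign. With the posterior mean TPM, added after seeing the data, the last was 2.45, and the other ratios moved by less than the spread between replicates. The uncalled ratios of *Il1r1*, *Il1r2* and *Il1rl1* changed sign in the second table, and those of *Il1r2* (0.11) and *Il1rl1* (−0.42) also with deposited TPM. The posterior mean TPM put *Il33* at 0.67, *Il1r1* at 0.27 and *Il1r2* at 1.47 TPM, and the second table put *Il1rl1* at 0.380, against 0.175 TPM as reported. In replicate 1 the second table gave the 375-nt transcript *Il1rl1-204* 0.415 TPM on 2.20 counts, against 0.04 TPM on 0.13 counts in the main table. Why the values differ was not tested. The leading shares moved in the second table to 91.3% for *Il1b-201*, 69.7% for *Il18-204* and 71.6% for *Il18bp-201*, against 95.2%, 54.9% and 56.8%. At 0 to 31 counts, the levels of *Il33*, *Il1r1*, *Il1rl1* and *Il1r2* are limited by depth. No paired analysis was possible because both libraries belong to 1 group.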
